A study of Mus musculus with 30 samples.

Results

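The genes described here encode the Wnt ligands, the Frizzled receptors and the co-receptors Lrp5 and Lrp6. They were taken by symbol from the protein-coding genes of the mouse annotation, and 31 of 21951 genes matched: 19 ligand genes, 10 Frizzled genes and 2 co-receptor genes. For each gene, peaks of H3K27ac, the acetylated form of lysine 27 on histone H3 that is found at active promoters and enhancers, were counted within 2.5 kb of any annotated transcription start site (TSS) and within 50 kb of the gene body. The peaks came from 4 deposited lists, 1 for each cell line and treatment.

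The lines were CK1750 and Tnm2, both mouse lung adenocarcinoma lines, grown in serum-containing medium. They were given the solvent DMSO alone, or UNC0638 at 1 µM, which inhibits G9a and Glp, enzymes that methylate histone H3. CK1750 was described by the study as resembling tumor-propagating cells. Tnm2, which the paper writes TnM2, was given to the authors by another laboratory. Each line stands for 1 tumor-derived culture, and no treatment time is given in the labels. The H3K27ac samples numbered 3 for DMSO-treated CK1750, 1 of them a second sequencing run, and 2 for each of UNC0638-treated CK1750, DMSO-treated Tnm2 and UNC0638-treated Tnm2, 9 of the 30 samples of the series. Both samples of UNC0638-treated CK1750 carry the same replicate number in the labels, so whether they are separate replicates is not given. The other 21 samples, of H3K9me2 and input DNA, were not analysed here.

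Wnt proteins are secreted, lipid-modified ligands that bind the extracellular domain of a Frizzled receptor, a protein that spans the membrane several times. In the canonical branch the ligand also engages Lrp5 or Lrp6, the complex that degrades beta-catenin is held back, and beta-catenin enters the nucleus to act with TCF/LEF factors. Other branches run through Frizzled or Ror and Ryk receptors without beta-catenin. In the lung, Wnt signaling is known for its part in branching and in the maintenance of alveolar progenitor cells.

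The lists held 27367 peaks for DMSO-treated CK1750, 24601 for UNC0638-treated CK1750, 30641 for DMSO-treated Tnm2 and 18794 for UNC0638-treated Tnm2. The list of UNC0638-treated Tnm2 stood apart, with the fewest peaks and with 15 peaks at a score of 3100 or more, against 197 to 610 in the others. Each group has 1 merged list, so no spread between replicates exists and no difference below could be tested. Depth is unknown, because peak lists carry no read totals. The score of a peak is -10 log10 of the P value given by the peak caller and depends on depth. The strength of a peak is therefore given as a percentile, the share of peaks in its own list with a score at or below its own. A percentile still moves with list length, because leaving out the weakest peaks of a list lowers the percentile of those kept. In chromatin of bulk cells, fewer cells with a mark and less mark per cell cannot be told apart. The lines were checked against markers of lung epithelium and adenocarcinoma, of which 5, 5, 5 and 6 of 9 had a TSS peak in the lists in the order above. Nkx2-1, Sftpc, Cdh1, Krt8 and Krt18 were among them in every list, while Sftpa1, Napsa and Epcam had no TSS peak in any. Leukocyte markers had none (0 of 3 in each list), endothelial markers 0, 0, 1 and 1 of 3 (Pecam1), and fibroblast and muscle markers 1, 1, 1 and 0 of 4 (Col1a1). Over all protein-coding genes, 50, 49.1, 49.4 and 41.3% had a TSS peak in the 4 lists, so 5 of 9 is close to the share of all genes.

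RefSeq promoter windows, from 250 bases before to 50 bases after the annotated start, were matched by symbol for 21 of the 31 genes. No window was matched for Fzd2, Fzd3, Fzd6, Fzd8, Lrp5, Lrp6, Wnt5a, Wnt7b, Wnt8a or Wnt10a. The following 5 windows are shown because they carry the contrast described below: a receptor start that lay under a peak in all 4 lists (Fzd1), and starts of a receptor (Fzd4) and of 3 ligands (Wnt4, Wnt9a and Wnt5b) whose peaks were listed in 1 or 2 lists only. Sequences are from build GRCm38.p6, 5′ to 3′ on the strand of the gene, and capitals mark CpG dinucleotides.
Fzd1, chr5:4758167-4758466, minus strand: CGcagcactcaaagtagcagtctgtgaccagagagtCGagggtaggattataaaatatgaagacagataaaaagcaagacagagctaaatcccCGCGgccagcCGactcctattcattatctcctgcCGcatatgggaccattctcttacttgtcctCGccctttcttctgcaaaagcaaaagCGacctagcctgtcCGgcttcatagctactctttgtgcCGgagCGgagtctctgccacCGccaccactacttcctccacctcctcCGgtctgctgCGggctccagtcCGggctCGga
Fzd4, chr7:89404116-89404415, plus strand: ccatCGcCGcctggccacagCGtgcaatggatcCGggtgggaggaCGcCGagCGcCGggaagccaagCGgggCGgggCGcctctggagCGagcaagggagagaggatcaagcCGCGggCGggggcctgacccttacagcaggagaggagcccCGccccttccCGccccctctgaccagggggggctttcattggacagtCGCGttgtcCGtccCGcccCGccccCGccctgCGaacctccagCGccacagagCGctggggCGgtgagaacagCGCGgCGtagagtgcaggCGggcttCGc
Wnt4, chr4:137277385-137277684, plus strand: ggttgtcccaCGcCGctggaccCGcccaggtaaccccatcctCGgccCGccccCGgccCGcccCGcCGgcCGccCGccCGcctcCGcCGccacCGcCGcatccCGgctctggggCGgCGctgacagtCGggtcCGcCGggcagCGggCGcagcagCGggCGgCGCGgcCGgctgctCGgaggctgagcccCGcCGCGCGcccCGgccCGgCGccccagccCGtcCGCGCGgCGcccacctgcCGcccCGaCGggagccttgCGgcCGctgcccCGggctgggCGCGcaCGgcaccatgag
Wnt9a, chr11:59306680-59306979, plus strand: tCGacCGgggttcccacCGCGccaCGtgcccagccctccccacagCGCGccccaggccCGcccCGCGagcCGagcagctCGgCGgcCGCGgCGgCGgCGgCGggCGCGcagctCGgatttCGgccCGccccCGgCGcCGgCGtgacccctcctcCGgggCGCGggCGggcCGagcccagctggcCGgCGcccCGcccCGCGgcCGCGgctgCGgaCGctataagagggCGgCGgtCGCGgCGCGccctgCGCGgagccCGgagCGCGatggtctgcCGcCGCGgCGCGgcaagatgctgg
Wnt5b, inner start, chr6:119467162-119467461, minus strand: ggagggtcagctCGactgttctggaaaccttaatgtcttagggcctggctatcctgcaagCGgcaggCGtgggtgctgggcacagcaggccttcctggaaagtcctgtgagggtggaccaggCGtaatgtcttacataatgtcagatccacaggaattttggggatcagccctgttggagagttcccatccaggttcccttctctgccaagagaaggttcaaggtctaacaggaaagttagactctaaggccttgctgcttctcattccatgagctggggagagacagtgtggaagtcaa

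The 300-base windows of Wnt4 and Wnt9a were dense in CpG, with 51 and 58 dinucleotides and a GC content of 84.3% and 83.3%. Fzd4 held 32 CpG dinucleotides and Fzd1 16. The inner start of Wnt5b held 4. The peak of Fzd1 covered its whole window in 3 lists and 252 bases of it in UNC0638-treated Tnm2, reaching in DMSO-treated CK1750 from 1103 bases before to 1297 bases after the RefSeq start. The peak of Wnt4 reached 43 bases into its window and that of Wnt9a 15 bases. The peak of Wnt5b covered 296 bases of its window. Neither Fzd4 peak overlapped its window.

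The first comparison asked which parts of the Wnt receiving and sending machinery carried H3K27ac at their start sites in these cells. Receptor genes mostly did and ligand genes mostly did not. Of the 12 receptor and co-receptor genes, 9 had a TSS peak in DMSO-treated CK1750, 10 in UNC0638-treated CK1750, 10 in DMSO-treated Tnm2 and 9 in UNC0638-treated Tnm2. Of the 19 ligand genes, 3, 1, 2 and 1 had one. Over all 31 genes the counts were 12, 11, 12 and 10, that is 38.7, 35.5, 38.7 and 32.3%. Over all protein-coding genes, the share with a TSS peak was 50% in DMSO-treated CK1750, 49.1% in UNC0638-treated CK1750, 49.4% in DMSO-treated Tnm2 and 41.3% in UNC0638-treated Tnm2. The receptor genes therefore lay above the share of all genes in every list and the ligand genes below it.

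A TSS peak in all 4 lists was found for 10 of the 31 genes, 7 Frizzled genes (Fzd1, Fzd2, Fzd3, Fzd5, Fzd6, Fzd7 and Fzd8), Lrp5, Lrp6 and the ligand gene Wnt7b, against 39.2% of all protein-coding genes. A TSS peak in no list was found for 17 genes, against 46% of all genes. These were Fzd9, Fzd10 and 15 ligand genes: Wnt1, Wnt2, Wnt2b, Wnt3, Wnt3a, Wnt5a, Wnt6, Wnt7a, Wnt8a, Wnt8b, Wnt9b, Wnt10a, Wnt10b, Wnt11 and Wnt16. The remaining 4, Fzd4, Wnt4, Wnt5b and Wnt9a, differed between lists.

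**Figure D1:**
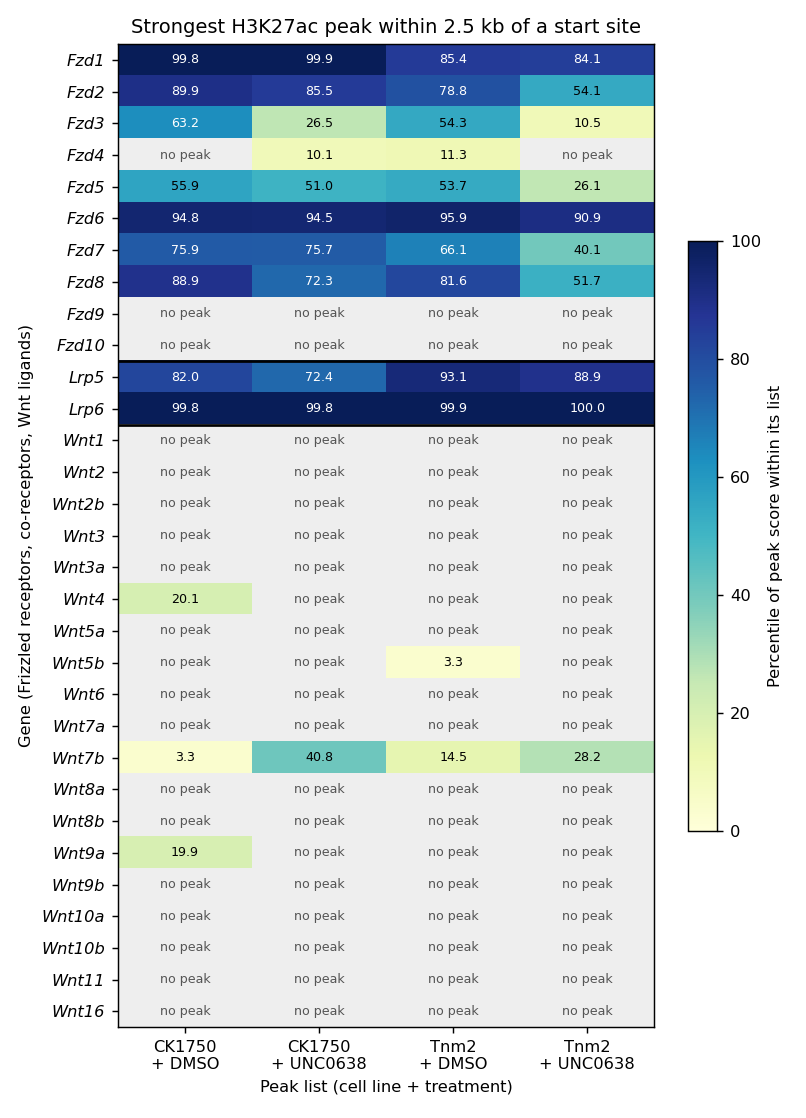
Percentile, within its own list, of the score of the strongest H3K27ac peak within 2.5 kb of a start site, for each of the 31 genes (rows) in the 4 lists (columns). Receptor rows are mostly filled, with Lrp6 at 99.8 or above in every list, while 15 of the 19 ligand rows hold no peak at all.

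Lrp6, a co-receptor for canonical signaling, had the start-site peak with the highest median percentile over the 4 lists, although Fzd1 was level with it in DMSO-treated CK1750 and above it in UNC0638-treated CK1750. Its scores were 3100, 3100, 3100 and 3124.25 in the order DMSO-treated CK1750, UNC0638-treated CK1750, DMSO-treated Tnm2 and UNC0638-treated Tnm2, at percentiles 99.8, 99.8, 99.9 and 100. The first 3 of these lie at the value where scores of the caller pile up, so differences in strength among them are not resolved.

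Its paralog Lrp5 (chromosome 19, 3584828 to 3686564, minus strand) had a TSS peak at percentiles 82.0, 72.4, 93.1 and 88.9, which was higher in both Tnm2 lists than in both CK1750 lists. The number of peaks within 50 kb of Lrp5 was 9, 5, 12 and 12. The lines differed inside the gene. Introns of Lrp5 held regions at 50.8 and 20.4 kb from the 5′ end that were listed in both Tnm2 lists and in neither CK1750 list, with scores of 518.79 and 387.9 in DMSO-treated Tnm2 and 171.98 and 161.63 in UNC0638-treated Tnm2. Intronic regions at 17.3 and 5.27 kb were listed in DMSO-treated CK1750 at scores of 66.03 and 84.84, were absent from UNC0638-treated CK1750, and were listed in both Tnm2 lists. Regions at 47.9 and 43.5 kb were in all 4 lists.

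Fzd6, a Frizzled receptor tied mainly to planar polarity, was at percentiles 94.8, 94.5, 95.9 and 90.9, with scores of 1953.79, 1734.9, 1436.11 and 498.05. Fzd1 (chromosome 5, 4753839 to 4758035, minus strand) was at 99.8 and 99.9 in the CK1750 lists and at 85.4 and 84.1 in the Tnm2 lists, and the peak was narrower there, 1706 and 1236 bp against 2401 and 2523 bp. An upstream region of Fzd1, 31.1 kb from the 5′ end, was listed in both CK1750 lists with scores up to 145.38 and 363.82. It had a score of 60.97 in DMSO-treated Tnm2 and was absent from UNC0638-treated Tnm2. From CK1750 to Tnm2, Fzd1 changed by -14.4 points with DMSO, where 12.0% of all genes had a change as low or lower. With UNC0638 it changed by -15.8 points, where 30.3% did. Its score in DMSO-treated CK1750 was 3100, the value where scores pile up.

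Fzd2 (percentiles 89.9, 85.5, 78.8 and 54.1), Fzd8 (88.9, 72.3, 81.6 and 51.7) and Fzd7 (75.9, 75.7, 66.1 and 40.1) were lowest in UNC0638-treated Tnm2. At Fzd7 the peak over the start of the single exon, with scores of 481.6, 523.04 and 239.79 in the other lists, was absent from UNC0638-treated Tnm2, and the peak counted there lay upstream, 1.10 kb from the 5′ end as the centre of the joined region. Fzd5 was at 55.9, 51.0, 53.7 and 26.1. Fzd3 was at 63.2, 26.5, 54.3 and 10.5, the lowest of the 7 in both UNC0638 lists.

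Among the genes with a TSS peak in both lists of a line, the rank of the strongest TSS peak was set against that of all genes. In CK1750, the 7 Frizzled genes had a median change of -4.4 percentile points from DMSO to UNC0638, and 6 of 7 were lower, while the median over 10445 genes was -2.4 and 69.3% were lower. In Tnm2 the Frizzled median was -26.0 and 7 of 7 were lower, while the median over 8926 genes was -9.5 and 89.7% were lower. The -26.0 is the change of Fzd7. Its strongest TSS peaks with DMSO and with UNC0638 did not overlap there, so different places are set side by side. At Fzd5 (-27.6 in Tnm2), the UNC0638 peak, at percentile 26.1, overlapped the strongest DMSO peak only at its edge. It also overlapped a weaker DMSO peak at percentile 25.5. At Fzd2 (-24.7 in Tnm2), 1 TSS peak with DMSO stood against 2 with UNC0638, at percentiles 54.1 and 25.2. Peaks that start near the top of a list have little room to rise, and those near the bottom little room to fall. Among genes at percentiles 50 to 90 with DMSO, a range chosen after the values were seen, the medians in Tnm2 were -26.8 for 6 Frizzled genes and -15.7 for 5500 genes. Quartiles were -29.3 and -25.0 for the former and -28.0 and -7.1 for the latter. In Tnm2 this range left out Fzd6, at percentile 95.9 with DMSO, which changed by -5.0. In CK1750 the medians in the same range were -4.9 for 5 Frizzled genes and -4.0 for 6366 genes. Fzd3 changed by -36.7 in CK1750, where 1.01% of all genes had a change as low or lower, and by -43.8 in Tnm2, where 5.70% did. Between the lines, the Frizzled median for Tnm2 minus CK1750 was -8.9 with DMSO (all genes -0.4) and -20.6 with UNC0638 (all genes -6.3). The list of UNC0638-treated Tnm2 is the shortest, with 18794 peaks against 30641 for DMSO-treated Tnm2. These percentile changes were not repeated at equal list length, so a part played by list length was not tested.

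Fzd4, the receptor for norrin as well as for Wnt ligands, was the one Frizzled gene whose TSS peak differed between lists. It had no TSS peak in DMSO-treated CK1750, a weak one in UNC0638-treated CK1750 (score 60.42, percentile 10.1), a weak one in DMSO-treated Tnm2 (score 57.88, percentile 11.3) and none in UNC0638-treated Tnm2. The peaks did not lie at the same place. In UNC0638-treated CK1750 the peak ran from 259 to 644 bases after the RefSeq start, and in DMSO-treated Tnm2 from 1133 to 645 bases before it. The start of Tmem135 lies within 2.5 kb of both, so neither peak can be assigned to Fzd4 alone. Peaks within 50 kb of Fzd4 numbered 2, 3, 5 and 0. A region 22.9 kb upstream, with scores of 149.09, 78.94 and 155.02 in the other lists, and one 41.0 kb downstream of the 5′ end were both absent from UNC0638-treated Tnm2. Fzd9 and Fzd10 had no peak within 50 kb in any list.

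Ligand genes with a TSS peak had weak ones. The median percentile of the ligand peaks was 19.9 in DMSO-treated CK1750 (3 genes) and 8.88 in DMSO-treated Tnm2 (2 genes), against 88.9 and 72.4 for the Frizzled genes and 77.2 and 77.3 for all genes with a TSS peak.

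Wnt7b, an epithelial ligand of the developing lung, was the one ligand gene with a TSS peak in every list. Its strongest TSS peak had scores of 51.97, 130.43, 60.68 and 76.38, at percentiles 3.28, 40.8, 14.5 and 28.2, so that in both lines it ranked higher with UNC0638. The change was 37.5 points in CK1750, where 99.7% of all genes had a change at or below it, and 13.7 points in Tnm2, where 99.0% did. These shares were not matched for starting percentile. With DMSO, Wnt7b stood at 3.28 and 14.5, with little room to fall. The medians over all genes with a TSS peak were 77.2 and 77.3 there. The peaks lay at different starts of this gene, which has 6 annotated starts (chromosome 15, 85535437 to 85582473, minus strand). In the CK1750 lists the strongest was 1.44 kb from the 5′ end as the centre of the joined region. In Tnm2 the peaks lay in an intron, 14.9 kb from the 5′ end with DMSO and 14.1 kb with UNC0638, near inner starts, and did not overlap each other, so the Tnm2 change sets 2 different places side by side. Peaks within 50 kb of Wnt7b numbered 8, 11, 9 and 5. Regions 31.9 and 43.5 kb upstream and 58.8 kb downstream of the 5′ end were listed in all 4 lists.

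Wnt4, a ligand known from kidney and female reproductive tract development, had a TSS peak in DMSO-treated CK1750 alone, with a score of 66.46 at percentile 20.1. Wnt9a had its TSS peak in the same list alone, with a score of 66.13 at percentile 19.9, and no other peak within 50 kb in any list. Wnt5b, a ligand that acts mostly without beta-catenin, had its peak in DMSO-treated Tnm2 alone, at an inner start, with a score of 51.91 at percentile 3.29. All 3 scores were close to the caller's cutoff of 50, and none of the 3 peaks remained when only scores of at least 100 were kept.

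With UNC0638, 2 of the 12 genes with a TSS peak in CK1750 lost it (Wnt4 and Wnt9a), against 4.85% of all genes with one, and 1 of the 19 without one gained it (Fzd4), against 3.03%. In Tnm2, 2 of 12 lost it (Fzd4 and Wnt5b), against 17.7% of all genes, and 0 of 19 gained one, against 1.18%. With DMSO, Wnt4 and Wnt9a had a TSS peak in CK1750 and not in Tnm2 (3.74% of all genes did), and Fzd4 and Wnt5b the reverse (3.13%). With UNC0638, Fzd4 alone was in CK1750 and not in Tnm2 (9.16%), and 0 genes were the reverse (1.33%). These counts are of 1 or 2 genes with scores of 51.91 to 66.46, and with the lists cut to the 18794 highest-scoring peaks each, none of the 4 genes had a differing TSS peak, while Wnt7b was then gained in both lines.

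The genes with no start-site peak were not all without peaks nearby. No peak lay within 50 kb of 6 genes in DMSO-treated CK1750 (25.8% of all genes), 6 in UNC0638-treated CK1750 (27.3%), 7 in DMSO-treated Tnm2 (25.7%) and 8 in UNC0638-treated Tnm2 (31.4%). Fzd9, Fzd10, Wnt2, Wnt3 and Wnt5a were among them in every list. Wnt5a and Wnt2 are ligands known mainly from lung mesenchyme. The median number of peaks per gene was 3, 3, 3 and 2 over the 31 genes and 2 over all genes in each list, while the mean was lower for the 31 genes, at 2.68, 2.71, 3.13 and 2.13 against 3.27, 2.98, 3.52 and 2.28.

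Wnt7a, a ligand known from limb and reproductive tract development, had no TSS peak in any list but 4, 4, 4 and 5 peaks within 50 kb (chromosome 6, 91363981 to 91411363, minus strand). An intronic region 22.0 kb from the 5′ end was listed in all 4 lists, with scores of 205.61, 407.78, 491.33 and 290.26. A region 29.8 kb upstream was also in all 4, with scores of 294.95, 305.9, 327.08 and 197.75. Another, 53.5 kb from the 5′ end and past the 3′ end, was absent from DMSO-treated CK1750 and listed in the other lists at 96.32, 98.87 and 128.82. An intronic one at 38.5 kb was listed in CK1750 alone, at 145.87 and 66.41.

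Wnt11 had 4, 4, 5 and 3 peaks within 50 kb, and all 3 of its regions, 22.0 and 19.2 kb upstream and 68.7 kb from the 5′ end, were in all 4 lists. The one 19.2 kb upstream had scores of 859.94, 323.47, 277.66 and 85.8. Wnt16 had 4, 4, 5 and 1 peaks, of which a region 8.11 kb upstream was in all 4 lists. Wnt4 had 6, 6, 3 and 2. Its upstream regions at 46.0 and 21.6 kb were in all 4 lists, while an intronic one at 9.63 kb was listed in CK1750 alone, at 261.99 with DMSO and 60.46 with UNC0638. For Wnt1, Wnt3a, Wnt5b, Wnt8a, Wnt8b, Wnt9b and Wnt10b, the regions in all 4 lists lay at the starts of other genes, such as Fbxl14 and Adipor2 near Wnt5b. The 50 kb windows of 4 pairs overlap (Wnt1 with Wnt10b, Wnt6 with Wnt10a, Wnt3 with Wnt9b, Wnt3a with Wnt9a). Each pair but Wnt3 and Wnt9b had peaks counted for both genes.

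**Figure D2:**
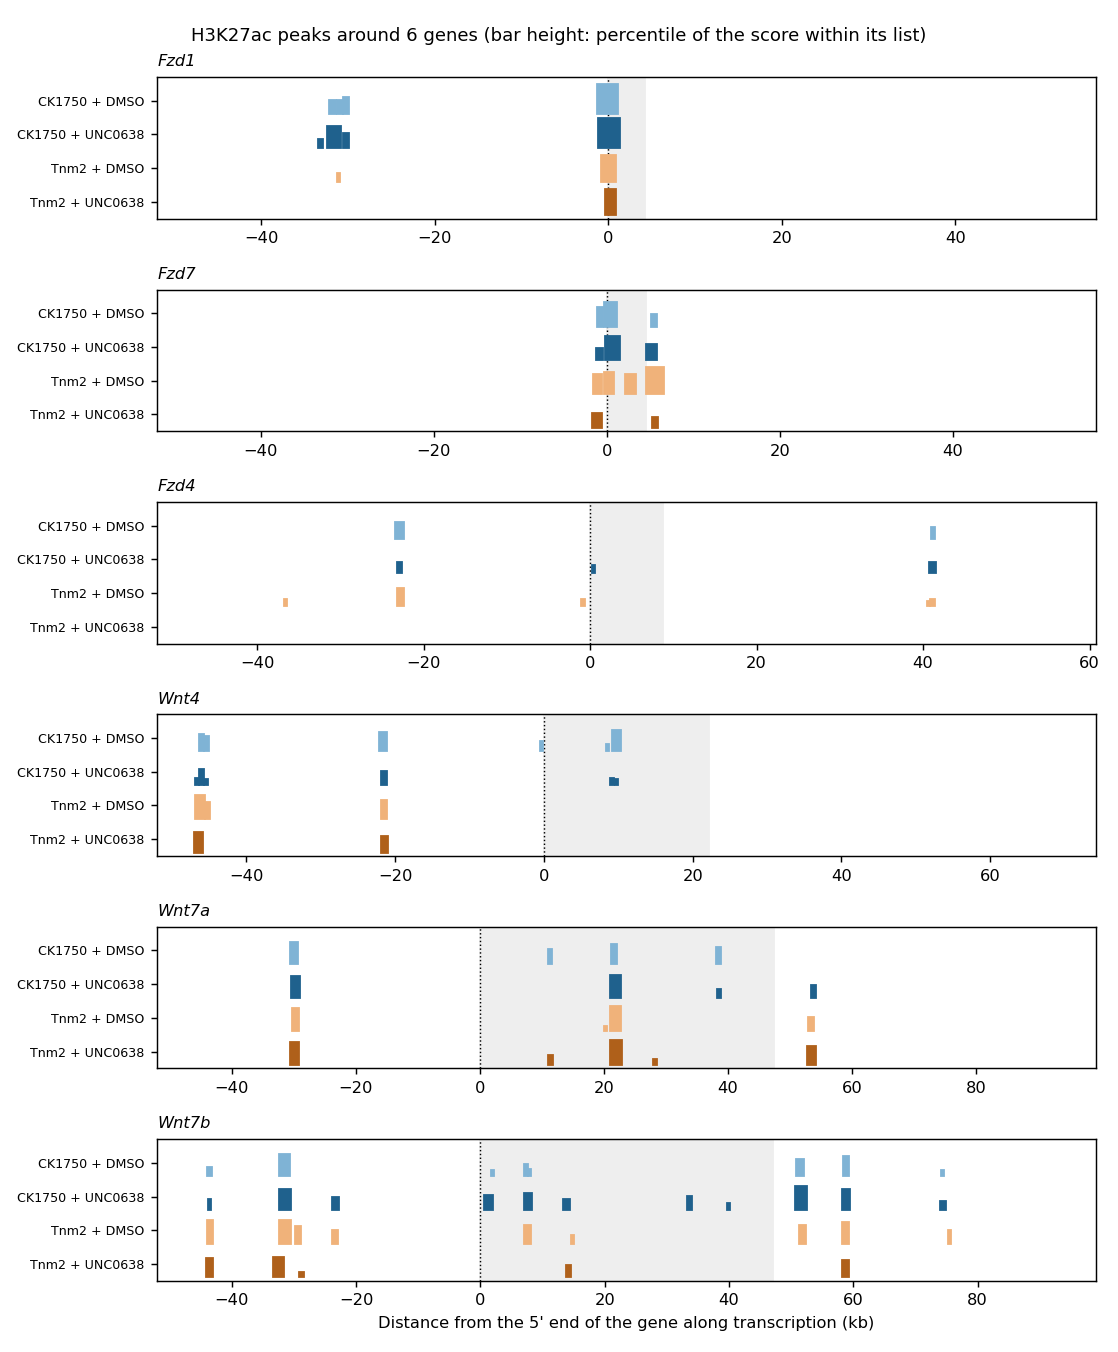
H3K27ac peaks around 6 of the genes by distance in kb from the 5′ end, which is the dotted line, with the gene body shaded and bar height giving the percentile of each peak's score within its list. Fzd1 has a tall peak at its start in all 4 lists, Wnt7a has none at its start but an intronic and an upstream peak in all 4, and Fzd4 has no peak in UNC0638-treated Tnm2.

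Counting each peak once, 79, 81, 94 and 62 peaks lay within 50 kb of the 31 genes, of which 13, 13, 17 and 11 were at a start site of one of them, 22, 19, 20 and 17 at that of another gene only and 44, 49, 57 and 34 away from any start. Joined over the lists they made 117 regions, 41 of which were in all 4 lists and 40 in 1. Regions at the start of other genes were the most often shared, 15 of 24, against 9 of 21 at the starts of the 31 genes and 17 of 72 away from starts. In CK1750, 13 of 79 DMSO peaks (16.5%) had no overlapping peak with UNC0638, against 21.8% of the whole list, and 15 of 81 UNC0638 peaks (18.5%) had none with DMSO, against 19.6%. In Tnm2 the shares were 37 of 94 (39.4%) against 43.1%, and 7 of 62 (11.3%) against 8.81%.

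By gene, UNC0638-treated CK1750 had fewer peaks within 50 kb than with DMSO for 6 of the 31 genes (30.9% of all genes) and more for 6 (14.9%). Lrp5 had the largest decrease, from 9 to 5. Fzd2, from 4 to 7, and Wnt7b, from 8 to 11, had the largest increases. In Tnm2, 14 of 31 had fewer (51.7% of all genes) and 3 had more (3.49%). Fzd4 had the largest decrease, from 5 to 0. Fzd6, from 5 to 1, Wnt7b, from 9 to 5, and Wnt16, from 5 to 1, followed. The 3 genes with more, each by 1 peak, were Fzd2, Wnt6 and Wnt7a. The Tnm2 list with UNC0638 is the shortest, and its length moves with these counts. With the 18794 highest-scoring peaks of each list, the peaks near the 31 genes numbered 51, 58, 58 and 62, so the lower number in UNC0638-treated Tnm2 was not seen at equal list length. Counts for single genes were not repeated at equal length.

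**Figure D3:**
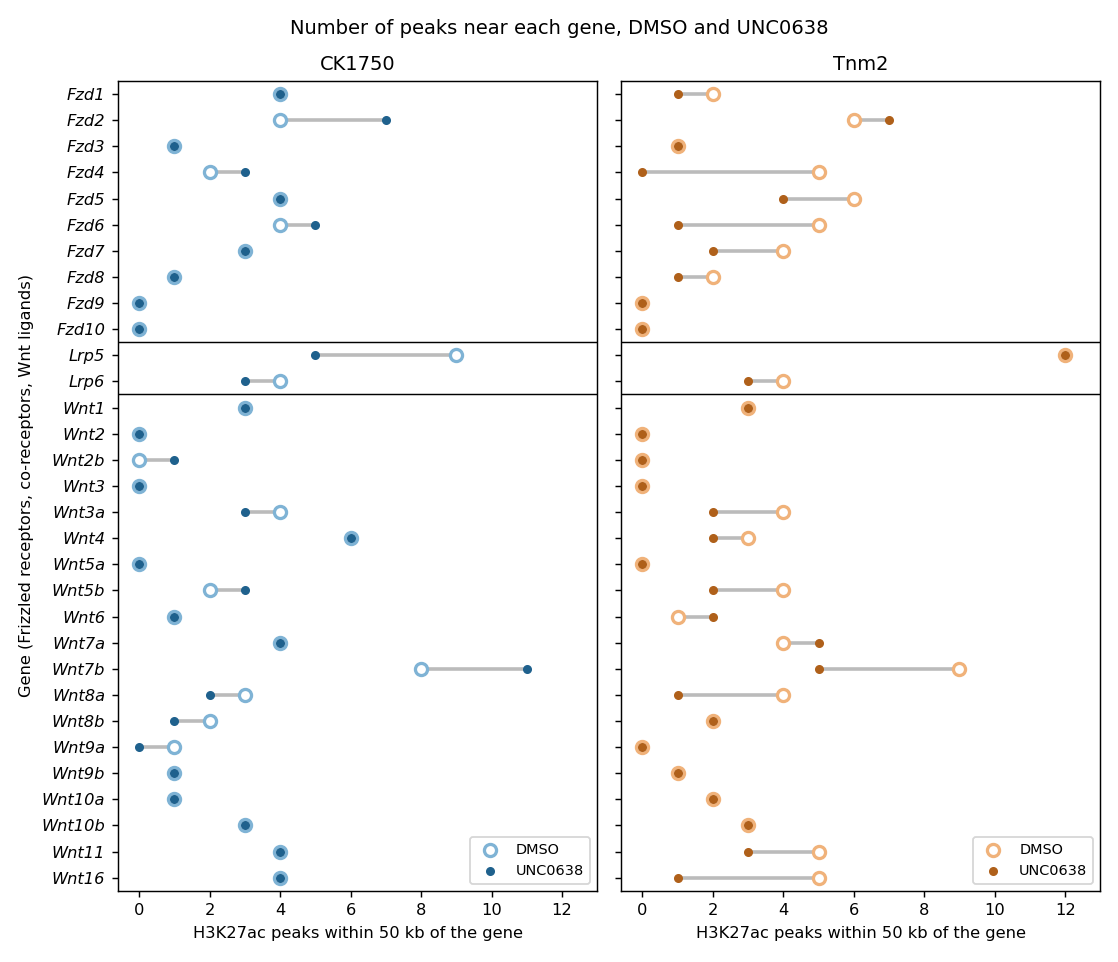
Number of H3K27ac peaks within 50 kb of each gene with DMSO (open circles) and with UNC0638 (filled circles), CK1750 on the left and Tnm2 on the right. In Tnm2, 14 genes have fewer peaks with UNC0638 and 3 have more, and Lrp5 stays at 12.

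The start regions were then described by their CpG content, which the choice of genes did not use. In the 500 bp on each side of the annotated 5′ end, the ratio of observed to expected CpG was 0.6 or more, a level often taken to mark CpG islands, for 46% of all protein-coding genes, for 12 of the 12 receptor genes and for 13 of the 19 ligand genes. Among all genes with such a start, 65.3% had a TSS peak in all 4 lists and 17.1% in none. Among the receptor genes with one, 9 of 12 had a TSS peak in all 4 lists and 2 of 12 in none. Among the ligand genes with one, 0 of 13 had a TSS peak in all 4 lists and 10 of 13 in none. The ligand genes with no TSS peak had a median ratio of 0.63, against 0.24 for all 10079 genes with a value and no TSS peak. Wnt7b, the ligand gene with a TSS peak in every list, had a ratio of 0.46 at its annotated 5′ end. Its Tnm2 peaks lay near inner starts, and with 1 start per gene it had a TSS peak in neither Tnm2 list. The ratio of Wnt5b, 1.00, is also that of its outermost start, while its peak lay at an inner one.

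**Figure D4:**
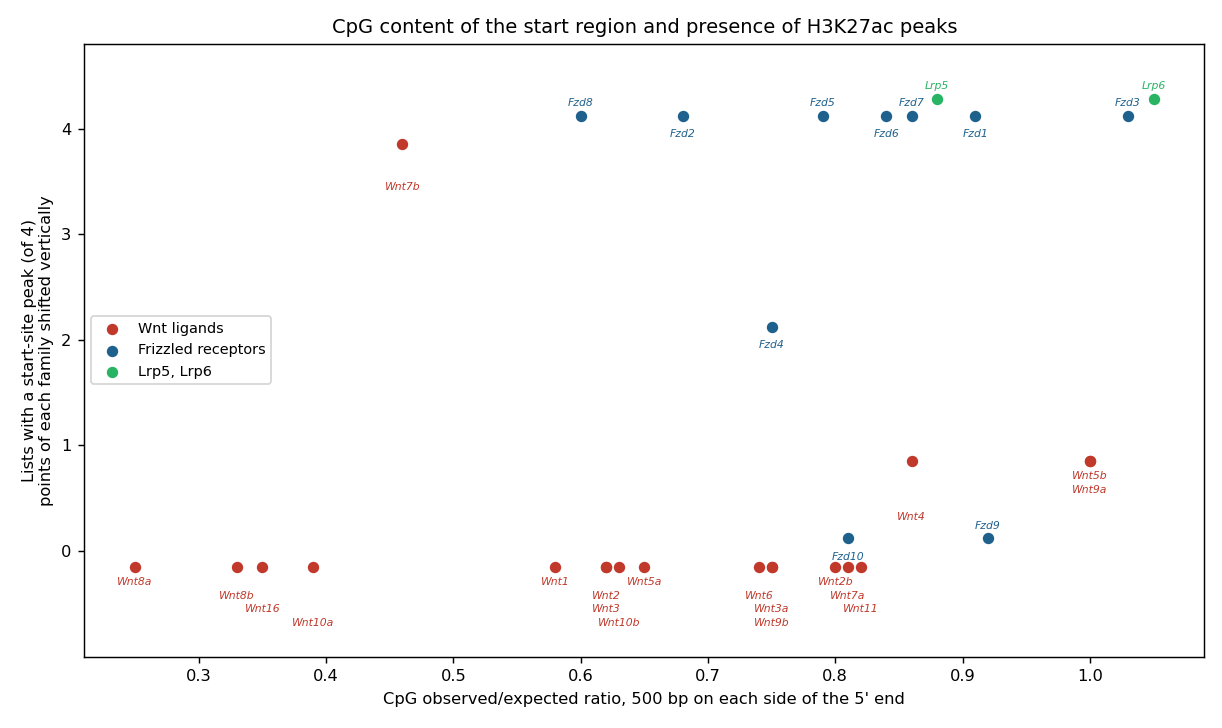
Ratio of observed to expected CpG around the 5′ end (horizontal axis) against the number of lists with a TSS peak (vertical axis, families shifted slightly to separate the points), for the 31 genes. Receptor genes with ratios of 0.60 and above sit mostly at 4 lists, while ligand genes with ratios of 0.60 to 0.82 sit at 0.

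Short motifs were counted in the RefSeq windows on both strands. The GC box GGGCGG was found in 19 of 24 windows of these genes (79.2%), against 35.7% of 32851 windows, and the share was alike for ligands (14 of 18) and receptors (5 of 6). The windows of Fzd4 and Wnt4 held 8 matches each and that of Wnt9a 5, and those of Fzd1 and the inner start of Wnt5b held none. The TATA box letters TATAAA were in 2 windows, those of Fzd1 and Wnt11 (8.33% against 13.6%). The AP-1 letters TGANTCA were in 1 window (4.17% against 7.81%), of the outermost start of Wnt5b. The TCF/LEF letters ATCAAAG were in 2 (8.33% against 3.73%), of Wnt11 and Wnt5b. None of the 4 strings of letters contains another, matches that overlapped were counted separately, and a match describes the letters only.

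A list of 40 other genes of the pathway was read for the same measure. Over all protein-coding genes, the shares with a TSS peak were 50, 49.1, 49.4 and 41.3% in the 4 lists. The machinery between the receptor and the nucleus was the fullest: 9, 8, 9 and 8 of 9 cytoplasmic genes had a TSS peak. Among them were Apc, a part of the degradation complex (percentiles 95.6, 94.9, 95.9 and 96.1), and Gsk3b, a kinase of that complex (96.8, 97.8, 97.3 and 95.6). Ctnnb1, which encodes beta-catenin, was another (85.3, 79.6, 81.6 and 67.5). Secreted antagonists, like the ligands, were nearly empty, with 0, 0, 1 and 0 of 10, the one being Sfrp4. Wls, which carries Wnt proteins to the cell surface, had a peak in every list (99.8, 97.5, 97.8 and 94.3). Porcn, which adds their lipid, had one in both CK1750 lists (51.3 and 35.8) and in neither Tnm2 list.

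Of 4 other receptors, 3, 3, 3 and 1 had a TSS peak. Ryk was in every list and Ptk7 in all but UNC0638-treated Tnm2. Ror2 was in CK1750 alone (47.5 and 43.2), and Ror1 in DMSO-treated Tnm2 alone (20.1). Of 8 nuclear genes, 5, 5, 5 and 2 had one, and Tcf7l1, Bcl9l and Pygo2 were those absent from UNC0638-treated Tnm2, while Tcf7l2 stayed at 97.3, 97.3, 98.5 and 99.0. Among all genes with a TSS peak in DMSO-treated Tnm2, 17.7% had none with UNC0638. Of 6 genes known as canonical targets, Myc and Ccnd1 had a TSS peak in every list and Axin2, Lgr5, Nkd1 and Sp5 in none. Over the 40 genes the counts were 21, 20, 21 and 14.

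**Figure D5:**
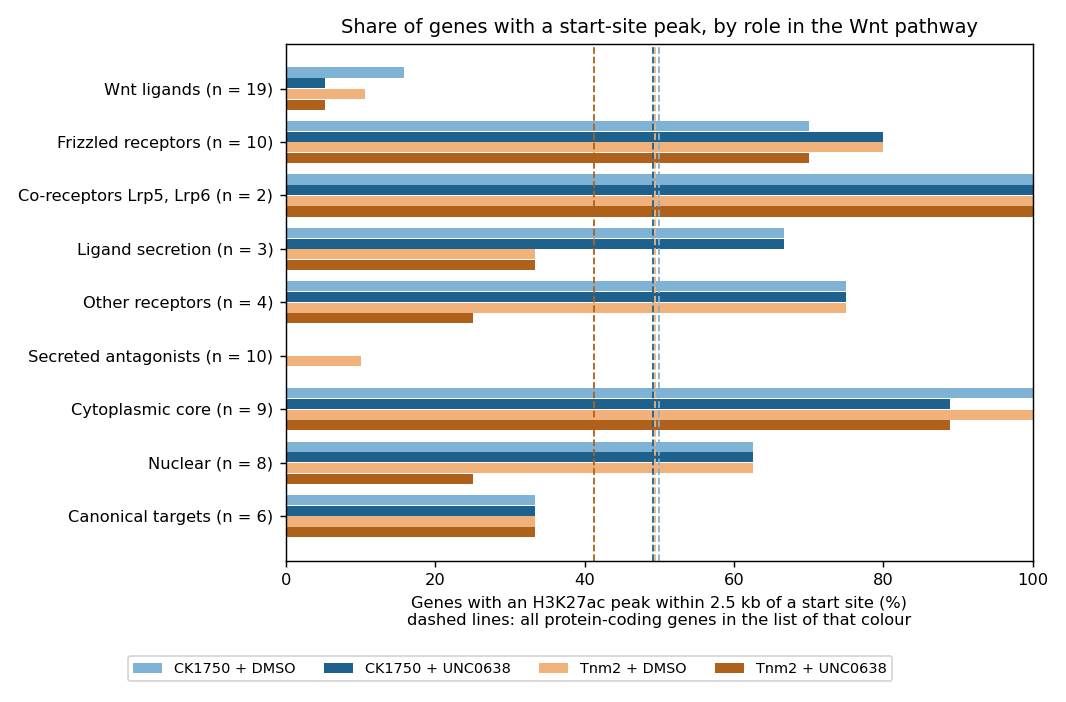
Share of genes with an H3K27ac peak within 2.5 kb of a start site (percent), by role in the pathway, 1 bar for each list, with dashed lines at the shares of all protein-coding genes (50, 49.1, 49.4 and 41.3%). Bars of the Frizzled receptors, co-receptors and cytoplasmic genes pass the lines in all 4 lists, and those of the ligands and secreted antagonists stay under them.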

How the data were processed

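Chromatin of mouse lung adenocarcinoma cells was immunoprecipitated for H3K27ac and sequenced by the authors. Per the study's methods and the submitters' processing notes, reads were mapped to mm10 (mouse build 38) with Bowtie2, SAMtools was used, and MACS 1.4.2 called peaks with its P value limit at 1e-05. The deposited lists give position and score for each peak. Each score was written by the authors' caller and equals -10 log10 P. Samples of a group share 1 list. Which libraries entered it, and whether input DNA served as control, is not given in the sources used here.

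Genes and start sites came from GENCODE release M 21, and the genome and promoter sequences from RefSeq (GRCm38.p6). Peaks were 1-based and assigned by at least 1 bp of overlap with windows of 2.5 kb around every annotated start of a protein-coding gene, or of 50 kb around the gene. Neighboring peaks of the 4 lists that overlapped were joined into regions. The same counts over all protein-coding genes gave the background. Genes named in the text were those whose start-site peak differed between lists, the 5 with the highest median percentile, those with the largest change of peaks within 50 kb, Wnt7a, Lrp5 and Lrp6, with the rest given by name or count. The genes and gene lists were chosen with earlier results of these data known. With 1 list per group, no p-value was computed. The assignment was tested on simulated lists. The alternatives were a score of at least 100, equal numbers of peaks, other windows, 1 start per gene, merged neighbors and a reciprocal overlap. Python 3.11.15, numpy 2.4.6 and matplotlib 3.10.9 were used.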

Additional observations from a re-analysis of the deposited data

Results flagged for a closer look

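Genes whose peak counts moved in opposite directions in the lines with UNC0638 were looked at again. With 1 list per group these differences between lines were not tested. Within 50 kb, Fzd4 changed by 1 peak in CK1750 and by -5 in Tnm2, Fzd6 by 1 and -4, Wnt5b by 1 and -2, and Wnt7b by 3 and -4. The TSS peak of Fzd4 was gained in CK1750 (a change of 1) and lost in Tnm2 (a change of -1). Opposite changes within 50 kb were found for 4 of 31 genes (12.9%), against 2751 of 21951 protein-coding genes (12.5%).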

How the results depend on the processing

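Of 128 values recomputed for 28 counts, 92 were within 1.5 times the reported one and 36 were not. Start-site windows of 1 and 5 kb moved no count by more than that, and the receptor counts stayed within that factor under each alternative that applied to them. Several ligand counts and changes of single genes did not hold under the score threshold or equal list lengths, while the ligand count of UNC0638-treated CK1750 (Wnt7b) held.

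With a score of at least 100, ligand genes with a TSS peak numbered 0 in DMSO-treated CK1750, 0 in DMSO-treated Tnm2 and 0 in UNC0638-treated Tnm2, all genes with one in UNC0638-treated Tnm2 numbered 6, the gene lost in CK1750 was 1 (Fzd3), and 3 genes (Fzd5, Fzd7 and Wnt7b) differed between the lines with UNC0638 while 0 and 0 did with DMSO. Peaks near the genes then numbered 49, 49, 58 and 40, and in Tnm2 21 were lost and 3 gained. The genes lost in Tnm2 were then Fzd3, Fzd5 and Fzd7.

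With equal numbers of peaks (18794), ligand genes numbered 0 in both DMSO lists, 0 genes lost a TSS peak in either line, 1 gained one in Tnm2 (Wnt7b), 0 differed between the lines in each comparison, and peaks near the genes numbered 51 and 58 in DMSO- and UNC0638-treated CK1750 and 58 and 62 in DMSO- and UNC0638-treated Tnm2, which turns the direction in Tnm2. With 1 start per gene, ligand genes numbered 0 in both Tnm2 lists, 1 gene was lost in Tnm2, with DMSO 1 was in Tnm2 and not in CK1750, and with UNC0638 2 were in CK1750 and not in Tnm2. A 10 kb gene window held 37, 33, 38 and 30 peaks. With a reciprocal overlap of 50%, 24 peaks near the genes were lost and 26 gained in CK1750 and 15 gained in Tnm2. A higher threshold, fewer peaks or starts and a smaller window lower such counts by construction, and the cause of the other moves was not tested.

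No paired analysis was possible because each group has 1 merged list, and leaving 1 replicate out was not done because the lists hold no separate replicates. Depth is unknown, so a missing peak says only that none passed the cutoff. Peaks were assigned to genes by distance alone.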
